A study of Mus musculus with 10 samples.

Results

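The transcripts of 7 genes of cardiac impulse generation and spread were followed here in mouse hearts: Scn4b and Scn10a, which encode sodium channel subunits, Hcn2 and Hcn4, which encode pacemaker channels, and Gja1, Gja5 and Gjc1, which encode connexins. They were chosen by gene symbol, matched through Ensembl identifiers to the GENCODE annotation of the mouse genome build GRCm39, and all 7 were found among the 78298 genes of the authors' table. Bulk RNA was sequenced from hearts of female C57BL/6J-background mice. Wild-type hearts gave 5 libraries, and the other 5 are labelled as coming from animals without p38δ in the germline, the kinase that Mapk13 encodes. Every heart was collected 72 h after a single intraperitoneal injection of doxorubicin, an anthracycline chemotherapy drug, at 30 mg/kg, so no untreated level was measured. The knockout was systemic, and the labels give neither the animals' ages nor the deleted part of the gene. Nor do they say which chambers each heart sample held.

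Voltage-gated sodium channels open at the start of the action potential and carry the fast inward current that drives conduction through atrial, ventricular and Purkinje muscle; their beta subunits tune gating and membrane placement. HCN channels open on hyperpolarisation, bind cAMP and carry the pacemaker current of the sinoatrial node. Connexins assemble into gap junction channels that pass current from cell to cell, and connexin 43, connexin 40 and connexin 45 are the products of Gja1, Gja5 and Gjc1.

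Total counts per library ranged from 21403189 to 40627138. Both a wild-type and a knockout library stood apart. Wild-type replicate 1 held transcripts of atria and of tissues outside the heart. Its summed atrial markers were 2784 CPM (counts scaled to library size, expressed per 1e+06), against 832 to 1177 CPM in the other 9 libraries. Pam alone made up 680 to 772 CPM of the sums of those 9. Wild-type replicate 2 was also raised for some atrial markers. Myl4 had 252 CPM in wild-type replicate 1, 42.6 CPM in wild-type replicate 2 and at most 2.52 CPM elsewhere. Summed lung epithelial markers were 779.99 CPM in wild-type replicate 1, 70.2 CPM in wild-type replicate 3 and 0.0952 to 0.811 CPM in the rest. Fast skeletal muscle markers of wild-type replicate 1 summed to 551 CPM, against 1.35 to 11.4 CPM elsewhere. Knockout replicate 4 had the highest sum of ventricular cardiomyocyte markers, at 41028 CPM against 10637 to 26321 CPM, and Myh6 alone made up 24290 CPM of it. Of the same list, Myl2 had 5645 CPM there against 1268 to 4474 CPM elsewhere, and Myl3 had 2576 CPM against 805 to 2407 CPM. Whether each listed gene is limited to ventricular muscle was not tested, so the sum is no measure of ventricular content. Not every marker was highest in knockout replicate 4. Hey2 had 4.22 CPM there and 3.65 to 6.14 CPM elsewhere, and Ckmt2 had 1075 CPM there and 1160 CPM in wild-type replicate 4. Ventricular markers were abundant in all 10 libraries, as the label of heart implies. Mapk13 had 292 counts in wild-type replicate 1, 1 to 5 in the other wild-type libraries and 9 to 15 in the knockout libraries, so it did not check the genotype labels, and groups are named as labelled.

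None of the 7 genes passed the test between genotypes. Genotypes were compared with edgeR's quasi-likelihood test, adjusted over all 16700 genes tested by Benjamini-Hochberg with a threshold of 0.05, and it called 0 of the 7, of which 2 had an unadjusted p under 0.05. DESeq2 also called 0 of the 7, against 0.707% of all tested genes. Over all tested genes edgeR called 59, or 0.353%, and 6.86% had an unadjusted p under 0.05. The wild-type and knockout values overlapped in all 7 genes, while 1.78% of all tested genes had groups that did not overlap. All 7 passed the filter on low counts. The fold changes nearest to a call were those of Gja5, lower in the knockout hearts, and Scn4b, higher there, and each rested on groups that shared part of their range.

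Promoter windows are shown for Gja5, Scn4b and Hcn4, the members with the smallest p between genotypes, to give the sequence before each annotated start. Which start sites these hearts used was not measured. Each window holds the 250 bases before the start of the canonical GENCODE transcript in GRCm39, written in the direction of transcription, with capitals marking GGGCGG or its reverse complement CCGCCC, the core letters of the GC box.
Gja5 (chr3:96939461-96939710, plus strand): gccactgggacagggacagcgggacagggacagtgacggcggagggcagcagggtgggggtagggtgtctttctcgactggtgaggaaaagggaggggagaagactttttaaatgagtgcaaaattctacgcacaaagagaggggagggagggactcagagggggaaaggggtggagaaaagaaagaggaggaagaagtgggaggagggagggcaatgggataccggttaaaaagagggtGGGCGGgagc
Scn4b (chr9:45049345-45049594, plus strand): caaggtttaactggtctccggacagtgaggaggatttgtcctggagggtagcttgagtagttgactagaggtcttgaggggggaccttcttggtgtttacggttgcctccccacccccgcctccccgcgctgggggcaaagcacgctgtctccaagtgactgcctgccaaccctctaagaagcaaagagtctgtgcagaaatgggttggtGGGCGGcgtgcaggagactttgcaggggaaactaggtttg
Hcn4 (chr9:58729882-58730131, plus strand): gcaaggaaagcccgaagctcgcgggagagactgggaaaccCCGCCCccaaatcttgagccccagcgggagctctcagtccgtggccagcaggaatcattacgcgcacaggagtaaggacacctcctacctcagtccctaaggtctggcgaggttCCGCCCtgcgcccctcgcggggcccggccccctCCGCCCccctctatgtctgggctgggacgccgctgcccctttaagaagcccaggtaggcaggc
Read on both strands, GGGCGG occurred once in the windows of Gja5, Scn4b and Gjc1, 3 times in that of Hcn4, and in 36.3% of 21757 windows of protein-coding genes. The letters of a T-box site, GGTGTGA, and of an NKX2-type site, TNAAGTG, occurred in 0 of the 7 windows, against 3.23% and 10.1% of all windows. TATAAA occurred in 0 of the 7, against 11.9%. The AP-1 letters TGANTCA were present once, in the window of Gja1, against 6.18% of all windows. GC content was 57.6% in the Gja5 window, 57.2% in that of Scn4b and 66.8% in that of Hcn4, with a median of 53.2% over all windows. An annotated exon covered up to 12 bases of the Hcn4 window, 94 of that of Hcn2, 135 of Gjc1 and 179 of Gja1. It covered 0 bases in the windows of Gja5, Scn4b and Scn10a.

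**Figure D1:**
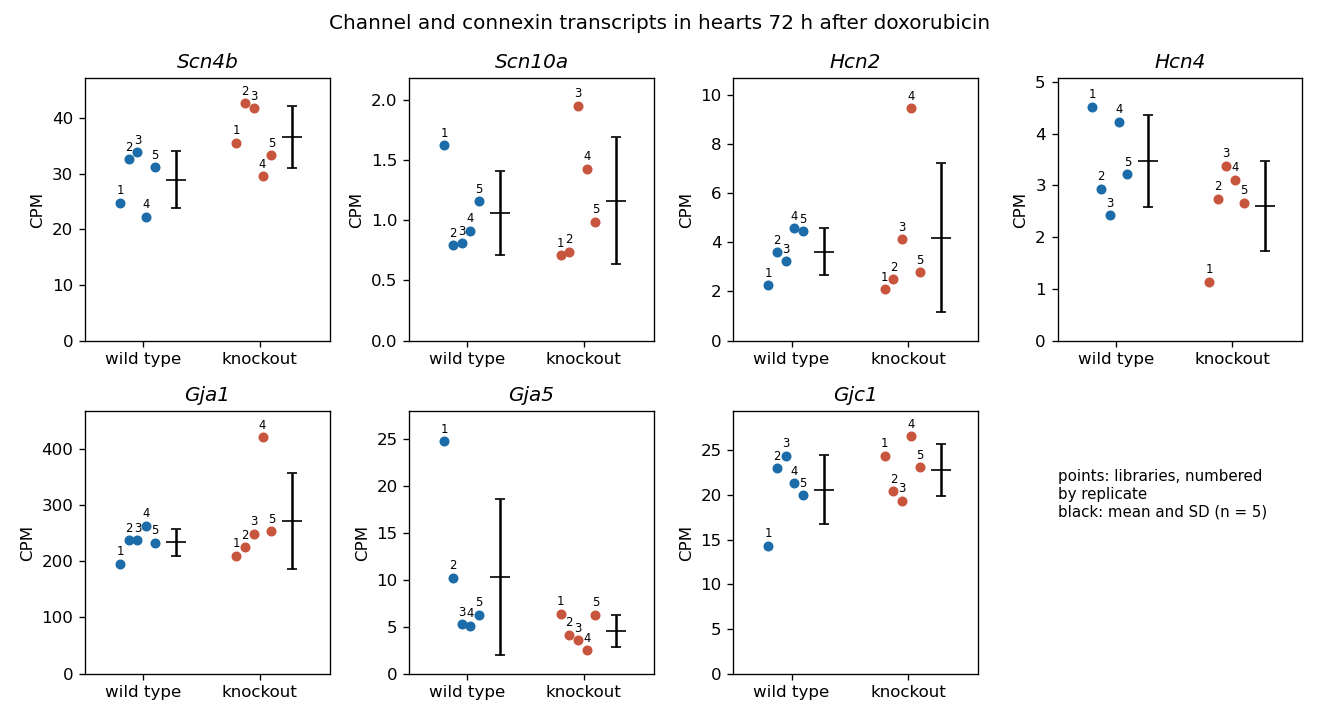
Level of each of the 7 transcripts in CPM, on axes that start at 0. Points are libraries numbered by replicate, and black marks give the mean and SD of 5 libraries. Gja5 of wild-type replicate 1 stands at 24.7 CPM, and Hcn2 and Gja1 of knockout replicate 4 stand at 9.47 and 420 CPM, away from their groups.

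Levels were compared between genes as CPM per kilobase of the canonical transcript. Gja1 was the highest, with a mean over the 10 libraries of 53.7 and a range of 41.6 to 89.4, a range that no other member reached. Scn4b came next with a mean of 6.46, followed by Gjc1 with 3.85, Gja5 with 2.37, Hcn2 with 1.10, Hcn4 with 0.455 and Scn10a with 0.135, all on the same per-kilobase scale. Scn4b exceeded Gjc1 within each of the 10 libraries although their ranges across libraries overlapped, and Hcn4 likewise exceeded Scn10a in 10 of 10. The order of the middle genes was not the same in every library. Gjc1 exceeded Gja5 in 9 of 10 libraries and Hcn2 exceeded Hcn4 in 9 of 10, the exception being wild-type replicate 1 both times. Gja5 exceeded Hcn2 in 8 of 10, the exceptions being knockout replicates 3 and 4. The ranges across libraries overlapped for these 3 pairs, and the differences in level between genes were not tested.

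Scn4b (ENSMUSG00000046480, chromosome 9, 45049595 to 45065452, GRCm39) encodes the beta 4 subunit, which in neurons is known to promote resurgent sodium current. Its levels in wild-type replicates 1 to 5 were 24.8, 32.6, 33.9, 22.3 and 31.2 CPM, and in knockout replicates 1 to 5 they were 35.6, 42.7, 41.9, 29.6 and 33.4 CPM. Knockout replicates 1, 2 and 3 lay above every wild-type library, while knockout replicates 4 and 5 lay within the wild-type range. The group means were 29.0 ± 5.11 CPM and 36.6 ± 5.61 CPM (SD, n = 5 each). The log2 fold change, knockout minus wild type throughout, was 0.34 with a standard error of 0.14 and an approximate 95% interval of 0.02 to 0.65 (edgeR, unadjusted p = 0.0304, adjusted p = 0.699). A two-sided exact permutation test of log2(CPM + 1) gave p = 0.0794, where 5 against 5 libraries cannot go below 0.00794. Without knockout replicate 4 the exact p was 0.0397 and edgeR's adjusted p was 0.67. An antisense long noncoding RNA, Gm39327, is annotated over 5064 bases of the gene but had at most 2 counts in any library.

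Scn10a (ENSMUSG00000034533, chromosome 9, 119435988 to 119548388) encodes Nav1.8, a sodium channel best known from sensory neurons. It was the lowest of the 7, with 18 to 74 counts per library, so its values carry the widest counting error. The wild-type libraries 1 to 5 had 1.63, 0.793, 0.808, 0.914 and 1.16 CPM, and the knockout libraries 1 to 5 had 0.708, 0.739, 1.95, 1.43 and 0.988 CPM. High and low libraries occurred in both groups, with wild-type replicate 1 and knockout replicate 3 at the top. Its log2 fold change was 0.12 with a standard error of 0.33, and the approximate 95% interval, -0.65 to 0.88, spans both directions (edgeR, adjusted p = 0.958, exact permutation p = 0.794). Markers of neurons, which also use this channel, summed to 11.1 to 21.8 CPM, and most of that was Uchl1 and Stmn2.

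Of 14 genes of the voltage-gated sodium channel family, 10 were tested, 7 had a log2 fold change above 0 and 3 below, and none passed the test. The family's median was 0.11, against -0.01 over all 16700 genes. Scn7a, which encodes a sodium-sensing channel of non-excitable cells, had 79.9 CPM in wild-type replicate 1 and 36.4 to 49.7 CPM in the other 9 libraries. Scn4a, the skeletal muscle channel gene, ran from 14.0 to 21.7 CPM in wild-type hearts and from 14.3 to 29.0 CPM in knockout hearts, highest in knockout replicate 4. Among 12 tested genes of proteins that bind or place cardiac sodium channels, 0 passed, with 6 above and 6 below 0 and a median of 0.04. The ankyrin genes Ank2 and Ank3, whose products anchor channels to the membrane skeleton, had log2 fold changes of 0.40 and 0.15 (edgeR, adjusted p = 0.714 for both). Camk2d, the main cardiac CaM kinase gene, had 0.22 and did not pass. Ank2 was also highest in knockout replicate 4, at 174.5 CPM against 67.9 to 124 CPM elsewhere.

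Hcn4 (ENSMUSG00000032338, chromosome 9, 58730132 to 58770458) encodes the main pacemaker channel of the sinoatrial node. Wild-type replicates 1 to 5 had 4.53, 2.94, 2.42, 4.23 and 3.22 CPM. Knockout replicates 1 to 5 had 1.14, 2.75, 3.38, 3.11 and 2.67 CPM. The lowest library was knockout replicate 1 and the 2 highest were wild-type replicates 1 and 4, but the remaining 7 interleaved. Between genotypes the log2 fold change was -0.41 with a standard error of 0.27 and an approximate 95% interval of -1.04 to 0.22 (edgeR, adjusted p = 0.768). The exact permutation test gave p = 0.19, two-sided. Without knockout replicate 1 the log2 fold change was -0.22 (edgeR, adjusted p = 0.855).

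Hcn2 (ENSMUSG00000020331, chromosome 10, 79552120 to 79571948) encodes the HCN channel that is also found in ventricular muscle and in neurons. Its values were 2.26, 3.60, 3.23, 4.57 and 4.45 CPM in wild-type replicates 1 to 5 and 2.09, 2.50, 4.14, 9.47 and 2.79 CPM in knockout replicates 1 to 5. Knockout replicate 4 alone lay above all others, and 3 of the other 4 knockout libraries lay below 4 of the 5 wild-type ones. Over all 10 libraries the log2 fold change was 0.22 with a standard error of 0.39 and an approximate 95% interval of -0.69 to 1.13 (edgeR, adjusted p = 0.925, exact permutation p = 0.944). Without knockout replicate 4 its sign turned, to -0.33 (edgeR, adjusted p = 0.798), so the data give no direction for Hcn2. The ratio of Hcn4 to Hcn2, which does not depend on library scaling, was 200% in wild-type replicate 1, 72.3% to 92.6% in the other wild-type hearts and 32.9% to 109.9% in the knockout hearts. As log2((CPM + 1)/(CPM + 1)) it differed by -0.36 between the groups (two-sided exact permutation test, p = 0.381, adjusted over 4 ratios 0.508). The added 1 leaves this log2 form with some dependence on library scaling.

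Hcn3, of the same family, did not pass the filter on low counts, with at most 0.227 CPM. Markers of the node and of Purkinje fibres summed to 93.7 CPM in wild-type replicate 1 and 103 CPM in knockout replicate 4, against 52.3 to 73.1 CPM elsewhere. Smoc2, Rgs6 and Cacna1g of this list were highest in knockout replicate 4, and Tbx3 in knockout replicate 2. Cacna1g had 8.53 CPM in knockout replicate 4 and 5.84 CPM in wild-type replicate 1. Other markers were highest in wild-type replicate 1. Shox2, a transcription factor gene of the sinoatrial node, stood at 4.22 CPM there against 0.195 to 0.839 CPM, and Cpne5, a marker of the conduction system, at 4.26 CPM against 0.0787 to 0.767 CPM. Isl1, a nodal transcription factor gene, had 2.81 CPM there, 1.06 CPM in knockout replicate 2 and was at 0 in 7 libraries. Of 11 tested genes on this list 0 passed, 2 had a log2 fold change above 0 and 9 below, with a median of -0.20. Without wild-type replicate 1 the split was 7 above and 4 below, with a median of 0.11 and again 0 called. Whether nodal tissue was carried along in that heart sample was not tested.

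Of 12 tested genes of proteins that act on pacemaker channels, which include cAMP-producing, receptor and Popeye-domain genes, 9 had a log2 fold change above 0 and 3 below, the median was 0.12, and 0 passed. Adcy5, an adenylyl cyclase gene, ran from 43.5 to 49.0 CPM in wild-type hearts and from 50.0 to 60.4 CPM in knockout hearts. Its groups did not overlap, yet it did not pass (log2 fold change 0.20, edgeR adjusted p = 0.624). Among the others Popdc1, which encodes a cAMP-binding Popeye protein, had 0.17, and Popdc3 had 0.17, with adjusted p of 0.748 and 0.801 by edgeR. Of 16 tested transcription factor genes of heart and conduction tissue 0 passed, 9 above and 7 below 0 with a median of 0.08. Tbx18, a gene of the sinus node head and the epicardium, stood at a log2 fold change of -0.35 (edgeR, adjusted p = 0.688) and Tbx20 -0.14 (0.722).

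Gja1 (ENSMUSG00000050953, chromosome 10, 56253241 to 56278609) encodes connexin 43, the main gap junction protein of ventricular muscle. Wild-type replicates 1 to 5 had 195, 237, 238, 263 and 233 CPM, and knockout replicates 1 to 5 had 209.6, 225, 249, 420 and 253 CPM. Apart from knockout replicate 4, all 9 libraries fell between 195 and 263 CPM. The means were 233 ± 24.4 CPM and 271 ± 85.1 CPM (SD, n = 5 each). Gja1 had a log2 fold change of 0.22 with a standard error of 0.18 and an approximate 95% interval of -0.19 to 0.63 (edgeR, adjusted p = 0.812, exact permutation p = 0.452). Without knockout replicate 4 it was 0.01 with a standard error of 0.10 (edgeR, adjusted p = 0.992), and without wild-type replicate 1 as well it was -0.05. That knockout library was also the highest for the cardiac actin gene Actc1, at 4989.9 CPM against 816 to 2057 CPM, and for the myosin gene Myh6. Ventricular markers had 7 of 8 log2 fold changes above 0 with a median of 0.09, and 0 of 8 with a median of -0.31 without both libraries that stood apart, with 0 called either way. The part of that library's composition in the Gja1 result was not tested.

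Gja5 (ENSMUSG00000057123, chromosome 3, 96812009 to 96984732) encodes connexin 40, the connexin of atrial muscle, of the fast ventricular conduction system and of arterial endothelium. Wild-type replicates 1 to 5 had 24.7, 10.2, 5.28, 5.10 and 6.25 CPM, and knockout replicates 1 to 5 had 6.37, 4.12, 3.52, 2.50 and 6.26 CPM. Wild-type replicates 1 and 2 lay above all other libraries, and the other 3 wild-type hearts fell within the knockout range. The means were 10.3 ± 8.30 CPM and 4.55 ± 1.71 CPM (SD, n = 5 each). Its log2 fold change was -1.18 with a standard error of 0.47 and an approximate 95% interval of -2.26 to -0.11, the largest in size of the 7 (edgeR, unadjusted p = 0.0277, adjusted p = 0.694). The exact permutation test gave p = 0.0794, two-sided. Without wild-type replicate 1 the log2 fold change was -0.56 with a standard error of 0.30 (edgeR, adjusted p = 0.867), and without wild-type replicates 1 and 2 it was -0.29 with a standard error of 0.27 (0.97). As these libraries had the highest Gja5, leaving them out had to shrink the difference.

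The libraries with the highest Gja5, wild-type replicates 1 and 2, also had the highest summed atrial markers, at 2784 and 1177 CPM. Not every atrial marker followed this order. Kcna5 had 10.8 CPM in wild-type replicate 1 and 10.1 to 21.5 CPM elsewhere, and Kcnj3 had 99.6 CPM there and 70.3 to 101.6 CPM elsewhere. Myl7, the atrial regulatory light chain gene, stood at 173 CPM in wild-type replicate 1 and 25.2 CPM in wild-type replicate 2, at 0.437 to 1.71 CPM in wild-type replicates 3 to 5 and at 0.0787 to 0.357 CPM in the knockout hearts. Bmp10, a growth factor gene of atrial muscle, had 99.4 and 34.9 CPM in wild-type replicates 1 and 2 and at most 0.0962 CPM in the other 8 libraries. Of 9 atrial markers 7 were tested, all 7 had a log2 fold change below 0, with a median of -1.53, and edgeR called 0. DESeq2 called 3 of them, Myl7 (adjusted p = 1.66e-05), Myl4 (0.000968) and Dkk3 (0.0379), which edgeR gave adjusted p of 0.558, 0.572 and 0.616. The median was -0.26 without wild-type replicate 1, again with 7 of 7 below 0. Wild-type replicate 2, with its own atrial transcripts, stayed in that comparison, and the list was not read without both libraries. Since bulk tissue was measured, more atrial tissue in a sample and more Gja5 RNA per cell cannot be told apart. Markers of arterial endothelium, another of the tissues named above for Gja5, summed to 71.0 to 84.03 CPM in wild-type and 80.1 to 98.4 CPM in hearts of the other genotype. Bmx, an arterial kinase gene on that list, was highest in the same libraries as Gja5, at 8.68 CPM in wild-type replicate 1 and 3.60 CPM in wild-type replicate 2, against 1.37 to 3.02 CPM in the other 8. The part of arterial endothelium or of the conduction system in the Gja5 result was not tested. Among these markers Efnb2, an arterial ephrin gene, stood at a log2 fold change of 0.33 and Bmx at -0.97, and neither passed (edgeR, adjusted p = 0.569 and 0.711).

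**Figure D2:**
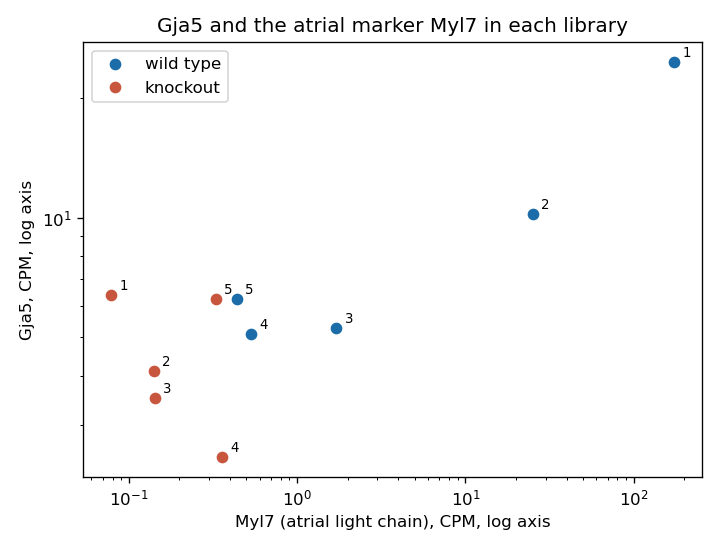
Gja5 against the atrial marker Myl7 in each of 10 libraries, both in CPM on log axes, with points numbered by replicate. Wild-type replicates 1 and 2 are the 2 highest for both genes, while among the other 8 libraries Myl7 is at most 1.71 CPM and Gja5 lies between 2.50 and 6.37 CPM.

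The position given for Gja5 is that of all its annotated transcripts, and it overlaps Gpr89, a gene on the other strand with 290 to 565 counts, over 654 bases. One noncanonical Gja5 transcript shares 856 bases at 99.4% identity with transcripts of Zfp697, which had 708 to 1640 counts, so a part of the low Gja5 values could belong to either gene. The strand setting of the counting is not given in the sources used here.

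Gjc1 (ENSMUSG00000034520, chromosome 11, 102686879 to 102710532) encodes connexin 45, a connexin of the early embryonic heart and later of nodal tissue and smooth muscle. Wild-type replicates 1 to 5 had 14.3, 23.0, 24.4, 21.3 and 19.96 CPM, and knockout replicates 1 to 5 had 24.4, 20.5, 19.4, 26.6 and 23.1 CPM. With wild-type replicate 1 set aside, all 9 libraries lay between 19.4 and 26.6 CPM. Gjc1 had a log2 fold change of 0.15 with a standard error of 0.14 and an approximate 95% interval of -0.17 to 0.47 (edgeR, adjusted p = 0.844, exact permutation p = 0.381). Gjc1 shares stretches of 200 to 203 bases at about 95% identity with 4 other genes, the most abundant being D830032E09Rik with 254 to 671 counts.

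Within a library, the ratio of Gja5 to Gja1 was 12.6% in wild-type replicate 1, 4.30% in wild-type replicate 2, 1.94% to 2.69% in wild-type replicates 3 to 5, and 0.594% to 3.04% in the knockout hearts. As log2((CPM + 1)/(CPM + 1)), the form of every log2 difference in this paragraph, it differed by -1.02 between the groups (two-sided exact permutation test, p = 0.111, adjusted over 4 ratios 0.444). The ratio of Gjc1 to Gja1 ran from 7.33% to 10.3% in wild-type hearts and from 6.32% to 11.6% in the knockout hearts, a log2 difference of -0.03 (exact p = 0.881, adjusted 0.881). That of Scn10a to Scn4b ran from 2.38% to 6.54% and from 1.73% to 4.83%, a log2 difference of -0.28 (exact p = 0.31, adjusted 0.508). None of the 4 ratios passed the test. Without wild-type replicate 1 the log2 difference was -0.60 for Gja5 to Gja1 and -0.14 for Scn10a to Scn4b, and without knockout replicate 4 as well that of Gja5 to Gja1 was -0.28. Without knockout replicate 2 that of Scn10a to Scn4b was -0.15.

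Of 20 connexin genes 6 were tested, 3 with a log2 fold change above 0 and 3 below, with a median of 0.06 and 0 called. Gja3, known as a lens connexin gene, spanned 6.28 to 10.03 CPM in wild-type hearts and 8.34 to 16.3 CPM in knockout hearts, highest in knockout replicate 4. Gjb2, an epithelial connexin gene that did not pass the filter, had 25.3 CPM in wild-type replicate 1 and at most 0.493 CPM elsewhere. Of the pannexin genes, which encode related channel proteins, 2 of 3 were tested and 0 passed, with log2 fold changes of -0.49 for Panx1 and -0.09 for Panx2. Genes of the intercalated disc, the junction where connexin 43 plaques sit, had 10 of 16 log2 fold changes above 0, a median of 0.05 and 0 called, but 6 of 16 above 0 without both libraries that stood apart. Their lowest p belonged to Vcl, the vinculin gene, with 101 to 137 CPM in wild-type hearts and 137 to 148 CPM in knockout hearts (log2 fold change 0.17, edgeR adjusted p = 0.74). Pkp4 and Xirp1, also of this list, had 0.18 and 0.24 and did not pass.

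**Figure D3:**
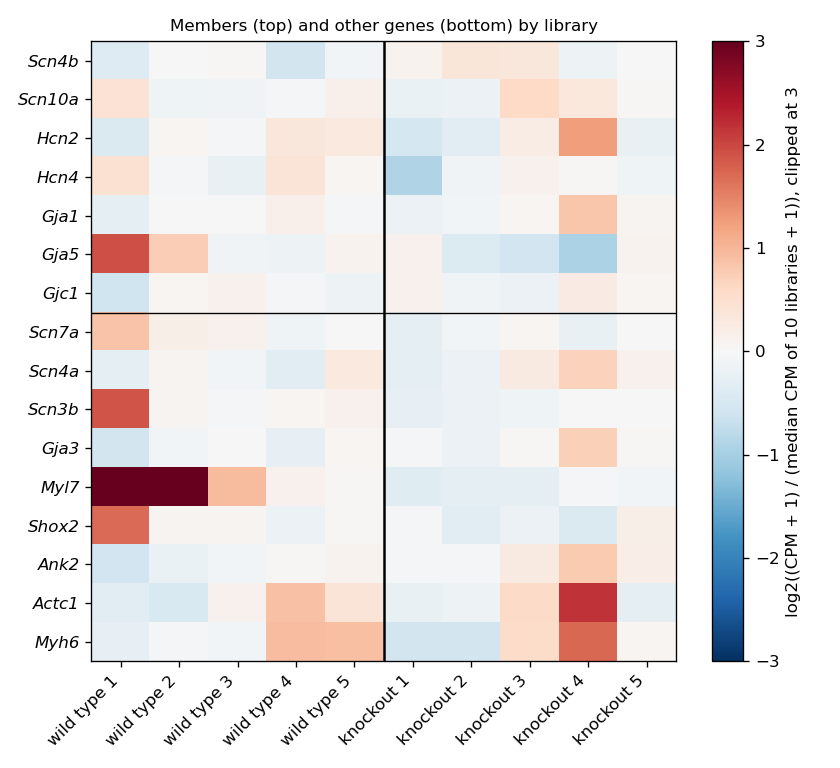
Level of the 7 members (above the line) and of 9 other genes (below it) in each library, as log2 of CPM + 1 relative to the median of the 10 libraries, with colours clipped at 3. In wild-type replicate 1 Gja5, Scn3b, Myl7 and Shox2 are high together, and in knockout replicate 4 Hcn2, Gja1, Gja3, Ank2, Actc1 and Myh6 are high together.

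The remaining cell type lists were read beside the members. Fibroblast markers summed to 811 to 1642 CPM in wild-type hearts and 725 to 856 CPM in knockout hearts, and 7 of 8 had a log2 fold change below 0, but 3 of 8 without wild-type replicate 1. Among them Dcn, a matrix proteoglycan gene, stood at -0.47 with groups that did not overlap (edgeR, adjusted p = 0.666). Smooth muscle and pericyte markers had 7 of 10 log2 fold changes above 0 and a median of 0.26, with Notch3, Pdgfrb and Cspg4 at 0.26, 0.33 and 0.34. Those below 0 were Cnn1, Tagln and Myh11, at -1.77, -0.78 and -0.40. Without wild-type replicate 1, 10 of 10 were above 0, with a median of 0.21. Schwann cell markers summed to 37.3 CPM in wild-type replicate 1 and 12.8 to 17.8 CPM elsewhere. Macrophage markers summed to 267 CPM in that library and 70.1 to 110.1 CPM elsewhere, with 6 of 6 log2 fold changes below 0 and a median of -0.65, but 3 of 6 below 0 and a median of -0.03 without it. Brown fat markers summed to 244 CPM there and 23.3 to 40.5 CPM elsewhere. Mesothelial markers summed to 29.9 to 120.04 CPM in wild-type hearts and 12.04 to 33.0 CPM in knockout hearts, with 6 of 6 below 0. Of these Upk3b, a uroplakin gene, was called lower by DESeq2 (adjusted p = 0.0154) and, without both libraries that stood apart, by edgeR (0.00458), but not by edgeR over 10 libraries (0.439). Pan-endothelial markers summed to 575 to 679 CPM and 604 to 710 CPM. With edgeR over 10 libraries none of the genes on these lists passed, and their part in the members' values was not tested.

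For each member, the 3 protein-coding genes most like it were found by Pearson's r of log2(CPM + 1) over the 10 libraries, among 12243 genes of mean CPM at least 1, as a description. Gja5 was most like Mgp, Pla2g4a and Capn5, with r of 0.97 for each, and r of 0.87, 0.89 and 0.95 over the 8 libraries without wild-type replicate 1 and knockout replicate 4. Hcn2 was most like Cenpf, Prkab1 and Trak1, with r of 0.98, 0.98 and 0.97, and 0.96, 0.92 and 0.94 over those 8 libraries. Gja1 was most like Ppp2r3a, Mvb12b and Iqsec2, with r of 0.97, 0.95 and 0.95 that dropped to 0.76, 0.73 and 0.46 over the 8 libraries, so its likeness rested in part on the 2 libraries set aside. Scn4b was most like Zfyve1, Zfp810 and Ramp3 (0.94, 0.91 and 0.90), Scn10a like Topbp1, Tmem241 and Fan1 (0.94, 0.94 and 0.93), Hcn4 like Zfp994, Rlig1 and Man2b1 (0.94, 0.92 and 0.91), and Gjc1 like Rftn1, Adrb1 and Pomgnt1 (0.95, 0.94 and 0.94), each value being r over 10 libraries. Over the 8 libraries the values for Gjc1 were 0.73, 0.77 and 0.88, and those for Scn4b, Scn10a and Hcn4 lay between 0.87 and 0.97. These 8 are among the 10 libraries used for the choice, so high values there do not show that a likeness holds. The largest r that 12243 unrelated genes would give was not computed.

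**Figure D4:**
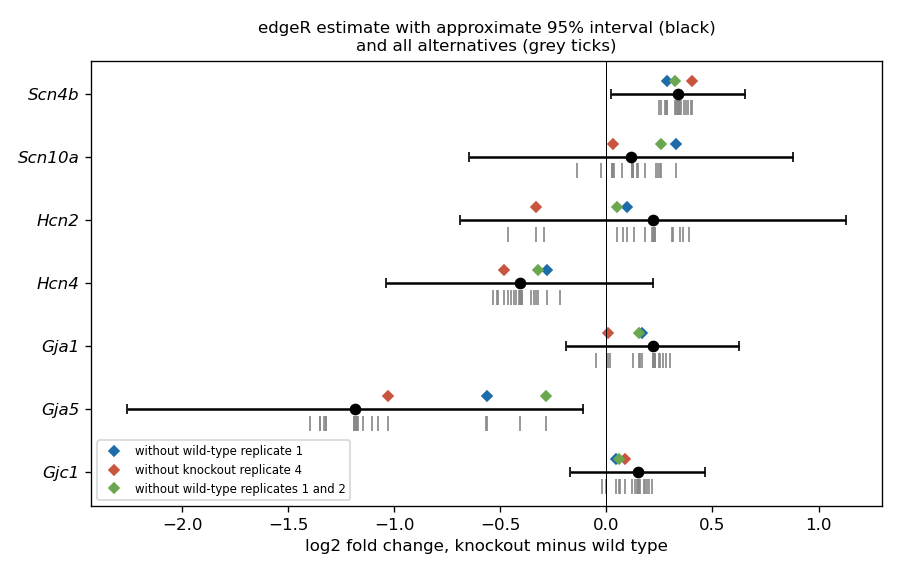
Log2 fold change of each member, knockout minus wild type. Black points and bars are the edgeR estimate from 10 libraries with its approximate 95% interval, grey ticks are all alternative settings, and diamonds are estimates without the named libraries. Gja5 moves from -1.18 to -0.29 without wild-type replicates 1 and 2, its highest libraries, Hcn2 crosses 0 without knockout replicate 4, and Scn4b stays between 0.25 and 0.41.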

How the data were processed

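Heart RNA from female mice was sequenced in 10 libraries, 5 of each genotype. Alignment to GRCm39 used STAR 2.5.2, per the labels' protocols; the submitters' processing notes name RSEM 1.3.0. The authors deposited expected counts per gene, which were whole numbers and were used as such. No source used here gives the annotation release, the strand setting or any trimming. Where genes share reads, RSEM splits them by estimation.

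Symbols, positions and transcript lengths came from GENCODE M39 of GRCm39, which held 78168 of the 78298 identifiers. Groups came from the genotype label; wild-type replicate numbers came from the titles and knockout ones from accession order, so they do not pair libraries. The labels name no batch and do not tie libraries to separate animals, so a p-value here reflects only how these libraries vary, which may be technical. A batch that went with genotype and the genotype cannot be told apart. All 20 within-group pairs of libraries differed by more than sampling noise (chi-square per degree of freedom 9.47 to 179).

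The main test was edgeR 4.0.16 (R 4.3.3) with TMM factors, a filter with minimum count 10 and robust quasi-likelihood fits. Standard errors were taken from the log2 fold change and its F statistic (size over root F), and intervals use 8 residual degrees of freedom, so both are approximate. CPM used TMM-scaled totals of tested genes. The TMM factor was 1.30 for wild-type replicate 1 and 0.922 to 1.01 for the other libraries. All CPM of wild-type replicate 1 are therefore lower than scaling by library totals would give. Alternatives were RLE, upper quartile and total scaling, DESeq2 1.42.0, limma 3.58.1 (voom, also weighted by library quality), 2 filters, omission of mitochondrially encoded genes, other pseudocounts and omission of libraries. List values without single libraries were added after seeing the data. BLAST 2.17.0 was used to look for near copies of the transcripts (at least 95% identical for 200 bases). The fitting procedure was tested on simulated data. Depth limits the precision of genes with few counts.

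The members and lists were chosen with earlier results of these data known. Genes were named by a rule: the members, up to 4 genes of each family by mean CPM, up to 3 of each list by p, and the 3 most like genes of each member. Hcn3, Bmp10, Isl1, Gjb2, Scn3b, Gpr89, Zfp697, Gm39327, D830032E09Rik and Myh6 were named after their values were seen or by the overlap search. Some genes that the rule reached are not reported here.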

Additional observations from a re-analysis of the deposited data

Results flagged for a closer look

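Each member's level and each of the 4 ratios was examined in both genotypes for a library far from the other 4 of its group (gap over range above 0.71 for 5 samples). Such a library was found in 4 of 22 groups of values, where independent normal values would give about 1 in 20. These groups are not independent, as the ratios reuse the members' levels. All 4 flags came from wild-type replicate 1 and knockout replicate 4, so the number of flags was not set against chance. Knockout replicate 4 stood apart for Hcn2, with 9.47 CPM where the other knockout hearts had 2.09 to 4.14 CPM. The same library stood apart for Gja1, at 420 CPM against 209.6 to 253 CPM. Wild-type replicate 1 stood apart for Gja5, with 24.7 CPM where the other wild-type hearts had 5.10 to 10.2 CPM. It also stood apart in the log2 ratio of Hcn4 to Hcn2, with 1 CPM added to both, at 0.76 against -0.37 to -0.09.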

How the results depend on the processing

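None of the 7 members was called in any of the 21 alternatives, while genes called over all tested genes numbered 118 with DESeq2 and 47 to 75 when any 1 library was left out. Scn4b kept a positive and Hcn4 and Gja5 a negative log2 fold change in all 21. Scaling by library totals alone moved the median of all genes to -0.12 and took Scn10a to -0.026, and the differences of mean log2(CPM + 1) to -0.0018 for Scn10a and -0.026 for Hcn2. With voom quality weights Hcn2 was at -0.29 and Gjc1 at -0.0039. Without wild-type replicate 1 and knockout replicate 4, log2 fold changes were -0.47 for Hcn2, -0.048 for Gja1 and -0.019 for Gjc1. Differences of mean log2(CPM + 1) were then -0.37, -0.053 and -0.022, and the log2 ratios were 0.03 for Gjc1 to Gja1 and 0.071 for Hcn4 to Hcn2. Without wild-type replicates 1 and 2 the Hcn2 difference was -0.11. Leaving out 1 library at a time gave log2 fold changes of -0.14 to 0.33 for Scn10a, -0.33 to 0.39 for Hcn2, -0.51 to -0.22 for Hcn4, -1.35 to -0.56 for Gja5, 0.01 to 0.30 for Gja1 and 0.04 to 0.22 for Gjc1. Differences of mean log2(CPM + 1) ran from 0.25 to 0.41 for Scn4b, -0.067 to 0.15 for Scn10a, -0.25 to 0.19 for Hcn2, -0.42 to -0.15 for Hcn4, -1.003 to -0.48 for Gja5, 0.01 to 0.26 for Gja1 and 0.03 to 0.22 for Gjc1. The log2 ratios ran from -0.13 to 0.087 for Gjc1 to Gja1, -0.49 to -0.13 for Hcn4 to Hcn2, -1.23 to -0.60 for Gja5 to Gja1 and -0.40 to -0.14 for Scn10a to Scn4b. Only Scn4b without knockout replicate 4 crossed 0.05 in the exact permutation test (p = 0.0397, range over its alternatives 0.0397 to 0.175). Apart from the omitted libraries, the cause of these shifts was not tested. Scn10a, with 18 to 74 counts, has no value under the filter of CPM at least 1 in 5 libraries. No paired analysis was possible because the knockout labels carry no replicate number shared with the wild-type ones.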
